A study of Mus musculus with 14 samples.

Results

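The drug efflux ATP-binding cassette (ABC) transporters, 8 of the 54532 genes in the deposited count table, were compared between ileum mucosa with and without NCoR1 in the epithelium. They were chosen by name: Abcb1a and Abcb1b, which both encode P-glycoprotein, Abcc1, Abcc2, Abcc3, Abcc4 and Abcc5 of the multidrug resistance-associated protein (MRP) family, and Abcg2, which encodes breast cancer resistance protein (BCRP). All 8 passed the filter on low counts. RNA was sequenced from scraped ileal mucosa of 14 male mice, 1 library per mouse, that were 7 to 8 weeks old when a high fat diet (HFD) began and had eaten it for 15 weeks. The 7 WT mice carried NCoR1 flox/flox without Cre. The 7 IKO mice carried the same floxed alleles plus Cre driven by the villin promoter, which is active in epithelial cells of the gut and not in the muscle, stroma or immune cells of the same scraping. The mice differed in Cre, and both genotypes had the floxed alleles and the diet in common.

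ABC efflux transporters use the energy of ATP hydrolysis to move substrates out of cells. In the enterocyte, P-glycoprotein, BCRP and MRP2 (Abcc2) sit in the apical membrane and return drugs, toxins and conjugates to the gut lumen, whereas MRP3 (Abcc3) sits in the basolateral membrane and passes conjugates towards the blood. NCoR1 is a corepressor that joins nuclear receptors to histone deacetylases, and the xenobiotic receptors PXR and CAR are among the known regulators of genes for drug metabolism and efflux.

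Library totals were 14749669 to 18744592 counts in WT mice and 15822384 to 21557468 in IKO mice. The libraries stood apart in a few respects. Mitochondrial transcripts were 50.3% of the library of IKO 4 and 23.9% of that of WT 3, against 3.49% to 10.3% elsewhere, and the summed smooth muscle markers of WT 4 were 10855 CPM (reads scaled to a common library size with TMM) against 4.53 to 795.8 CPM in the rest. The 10 absorptive enterocyte markers summed to 24031 to 107110 CPM in WT and 48719 to 92618 CPM in IKO mice, and muscle, immune and stromal markers were present as well, so the samples held mucosa and not epithelial cells alone. Ncor1 itself was 134.7 ± 31.3 CPM in WT and 50.55 ± 10.97 CPM in IKO mice (SD, n = 7 each), with all 7 IKO mice below all WT mice (edgeR adjusted p = 0.00051). In bulk tissue, fewer cells of a type and less RNA per cell cannot be told apart.

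The sequences bear on how far the P-glycoprotein genes can be told apart by their reads. Abcb1a (chr5:8660077-8748575) and Abcb1b (chr5:8798147-8866315) lie side by side on the plus strand of mouse chromosome 5 (GRCm38). Their coding sequences of 3831 bases each were identical at 87.7% of 3843 aligned columns, the longest identical run was 338 bases, and 4.41% of the 150-base stretches of the Abcb1a transcript also occurred in Abcb1b. No other pair of members shared a 150-base stretch, and the next most alike, Abcc1 and Abcc3, had 62.5% identity. The 60-base coding windows in which the P-glycoprotein genes differ most are shown to give the kind of stretch that separates them, with the 25 differing bases in capitals (coding bases 1913 to 1972 of Abcb1a and 1922 to 1981 of Abcb1b, transcripts of GENCODE M21).
Abcb1a: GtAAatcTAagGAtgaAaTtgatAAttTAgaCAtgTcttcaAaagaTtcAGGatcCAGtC
Abcb1b: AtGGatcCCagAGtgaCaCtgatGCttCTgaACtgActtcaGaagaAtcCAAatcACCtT

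RefSeq promoters (GRCm38.p6) were matched for 6 of the 8 members and were searched on both strands for 8 short motifs. Those of Abcg2, which passed the test below, and of the P-glycoprotein genes, whose levels lay furthest apart, are shown on the plus strand, which is the strand of all 3 genes, up to but not including annotated exons. Capitals mark the matches to AGGTCA or AGTTCA, half-sites of nuclear receptors, and to GGGCGG, the GC box.
Abcg2, chr6:58584283-58584522: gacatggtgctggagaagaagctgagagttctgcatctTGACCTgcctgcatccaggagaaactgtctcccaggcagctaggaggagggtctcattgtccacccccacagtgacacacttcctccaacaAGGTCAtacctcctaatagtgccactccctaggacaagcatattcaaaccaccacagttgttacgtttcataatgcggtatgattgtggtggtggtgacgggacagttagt
Abcb1a, chr5:8566841-8567090: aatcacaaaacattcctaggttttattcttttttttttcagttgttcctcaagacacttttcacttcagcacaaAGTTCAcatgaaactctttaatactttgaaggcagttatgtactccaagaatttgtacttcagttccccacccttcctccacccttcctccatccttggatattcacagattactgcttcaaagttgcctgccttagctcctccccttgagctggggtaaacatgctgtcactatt
Abcb1b, chr5:8797897-8798146: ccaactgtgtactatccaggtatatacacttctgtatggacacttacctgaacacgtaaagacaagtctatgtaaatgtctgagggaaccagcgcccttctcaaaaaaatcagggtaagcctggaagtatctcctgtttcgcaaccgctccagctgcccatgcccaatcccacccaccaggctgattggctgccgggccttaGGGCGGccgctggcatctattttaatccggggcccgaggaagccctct
The first RefSeq start of Abcg2 had 2 matches to AGGTCA, on opposite strands, a motif found in 14.02% of 32851 promoters. Starts 2 and 3 of Abcg2 lie 12149 and 56023 bases inside the gene and are not shown. Start 2 had no half-site and 2 GC boxes, and start 3 had 1 match to AGGTCA and 4 GC boxes. Which start was used in these samples was not tested. The Abcb1a window had 1 match to AGTTCA, found in 11.8% of promoters, and the Abcb1b window 1 GC box, found in 32.7%. Direct repeats of AGGTCA spaced by 1 base and of AGTTCA spaced by 4 bases matched none of the 9 starts searched, and 0.033% and 0.0091% of promoters. Abcc1 and Abcc3 had no matched promoter and were not searched. The other motifs searched were the TATA box (TATAAA), the core of the xenobiotic response element (GCGTG) and that of the antioxidant response element, which matched none of these 3 windows and 12.4%, 28.2% and 10.2% of promoters. The RefSeq start of Abcb1a lies 92986 bases before the gene start that the count table gives. A match to so short a motif is a description of the letters and not a binding site.

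The 8 transporters differed widely in level. Genes were compared per kilobase (kb) of gene length, as the count table gives it. These lengths exceed those of single transcripts by unlike amounts, as for Abcc1 with 15092 against 6792 bases. The order by transcript length was not computed. The median level in WT mice was 97.6 CPM per kb for Abcb1a, 18.4 for Abcc2, 13.1 for Abcg2 and 5.32 for Abcc3. The other members lay at or below 0.95 CPM per kb, with Abcc5 at 0.95, Abcc1 at 0.45, Abcc4 at 0.37 and Abcb1b at 0.12. In this order the WT ranges did not overlap between Abcb1a and Abcc2 or between Abcg2 and Abcc3, whereas all other neighbours overlapped. In IKO mice the order of the medians was Abcb1a at 191.7, Abcg2 at 50.5, Abcc2 at 44.5, Abcc3 at 8.22, Abcc5 at 0.61, Abcc1 at 0.19, Abcc4 at 0.16 and Abcb1b at 0.097 CPM per kb. Abcg2 and Abcc2 thus stood in the opposite order, but their ranges overlapped in both genotypes, and the only neighbours with separate ranges in IKO mice were Abcc3 and Abcc5.

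Summed over the 8 genes, the level was 143.4 ± 46.6 CPM per kb in WT and 287.1 ± 152.4 in IKO mice (SD, n = 7 each). The IKO range of the sum, 45.2 to 449.2, enclosed the whole WT range of 82.3 to 216.7. Abcb1a supplied 69.0 ± 1.96% of the sum in WT and 64.5 ± 6.32% in IKO mice. The Abcg2 share was 10.9 ± 3.55% in WT (6.92% to 16.0%) and 17.4 ± 3.60% in IKO mice (13.99% to 24.5%), and the Abcc2 share 14.9 ± 5.73% and 14.8 ± 2.63%. Abcb1b, Abcc1, Abcc4 and Abcc5 together made up a median of 2.41% in WT and 0.40% in IKO mice. These shares are given as descriptions and were not tested.

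**Figure D1:**
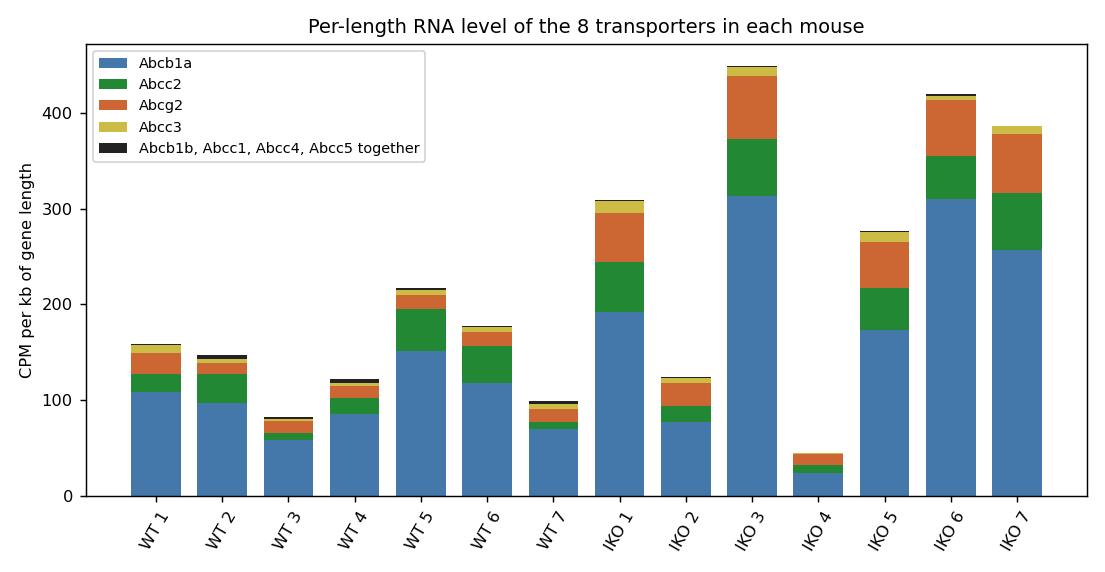
Stacked bars give the level of the transporters in each of the 14 mice, in CPM per kb of gene length, with Abcb1b, Abcc1, Abcc4 and Abcc5 drawn together. Abcb1a makes up most of every bar, and the IKO bars run from 45.2 in IKO 4 to 449.2 in IKO 3.

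Between genotypes, 1 of the 8 members passed the test as higher in IKO mice, Abcg2, and 1 as lower, Abcc1 (edgeR's quasi-likelihood test, Benjamini-Hochberg adjusted p under 0.05). Of all 13846 genes tested, 8.67% passed, 4.38% as higher and 4.28% as lower. The log2 fold change (IKO minus WT) was above 0 for 4 of the 8 members, Abcb1a, Abcc2, Abcc3 and Abcg2, against 43.5% of all genes, and the members' median was -0.03 against -0.09 for all genes. None of the 8 separated the genotypes without overlap, as 3.10% of all genes did, 1.83% with IKO higher and 1.26% with IKO lower. At an unadjusted p under 0.05 stood 5 members, where 30.4% of all genes stood. The 4 members above 0 were the 4 with the highest levels per kb, and of these Abcg2 alone passed. With 8 genes, a count of 1 in each direction is too few to set the group apart from the background.

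**Figure D2:**
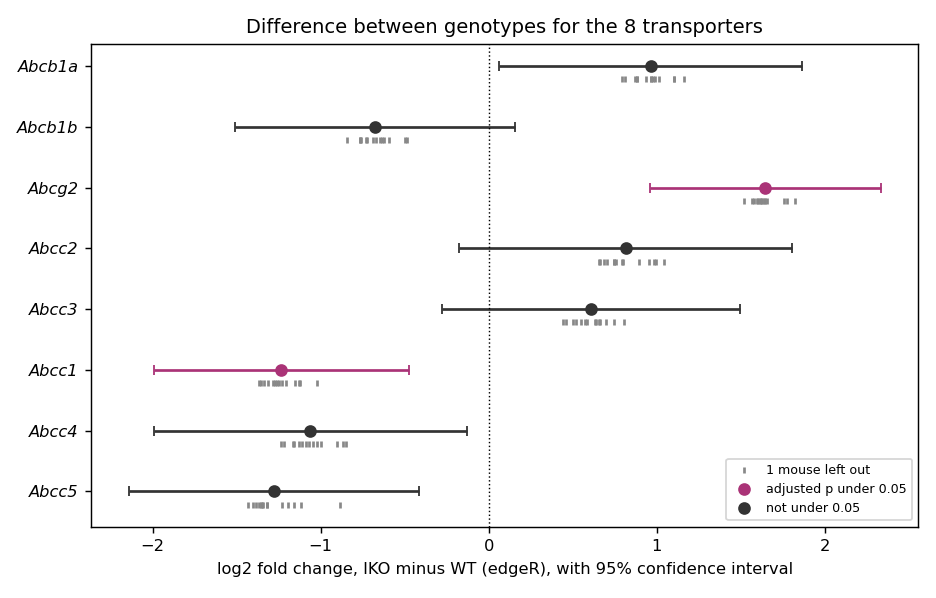
Points give the edgeR log2 fold change (IKO minus WT) of each transporter with its 95% confidence interval, and ticks below each point give the value with 1 mouse left out. Abcg2 at 1.65 and Abcc1 at -1.24 are the coloured points that passed the adjusted threshold, and the Abcg2 interval lies furthest from 0.

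Abcg2 (chr6:58584523-58695676, plus strand), the gene of BCRP, which exports sulfate conjugates, urate and many drugs into the gut lumen, was higher in IKO mice. Its level in WT mice was 92.2 CPM at the lowest, 107.0 at the median and 186.0 at the highest. In IKO mice the corresponding levels were 90.4, 411.7 and 536.2 CPM. Thus 6 of 7 IKO mice lay above every WT mouse, and IKO 4 lay just below the lowest of them. The means were 118.5 ± 31.4 and 371.2 ± 166.3 CPM (SD, n = 7 each), a 3.13-fold difference with a 95% interval of 1.94 to 5.04. The log2 fold change was 1.65 with a standard error (SE) of 0.32 and an adjusted p of 0.0090 in edgeR's quasi-likelihood test, and an exact two-sided permutation test of the log2 levels gave p = 0.0076. Among the 13846 genes tested it ranked 175 by p. The call held with each of the 14 mice left out and was lost when limma was run on log2(FPKM + 1) without a filter (adjusted p = 0.107).

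Abcb1a encodes the P-glycoprotein that predominates in mouse intestine and limits the uptake of many oral drugs. It was the most abundant member in every mouse, with 319.4, 535.1 and 832.3 CPM at the lowest, median and highest in WT mice. The IKO mice spanned a wider range of 134.4, 1050 and 1716 CPM. Of the 7 IKO mice, 5 lay above every WT mouse, IKO 2 at 423 CPM fell among the WT values, and IKO 4 at 134.4 CPM was the lowest of all 14. Its log2 fold change was 0.96 with an SE of 0.42 (1.95-fold, 95% interval 1.05 to 3.64). The difference did not pass the test (edgeR adjusted p = 0.141, exact permutation p = 0.248). Without IKO 4 the log2 fold change was 1.16 and passed (edgeR adjusted p = 0.0392), the only 1 of 26 alternatives in which it did. Without IKO 4, WT 3 and WT 4 it was 1.01 and did not pass (edgeR adjusted p = 0.110).

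Abcb1b, the second gene for P-glycoprotein in the mouse, which is best known from adrenal, ovary and pregnant uterus, was close to the limit of detection. Each library held between 6 and 63 of its reads, 185 in all WT and 89 in all IKO libraries. The levels were 0.29, 0.94 and 2.23 CPM at the lowest, median and highest in WT and 0.53, 0.78 and 1.09 CPM in IKO mice, so that the IKO values lay within the WT range. The log2 fold change of -0.68 with an SE of 0.39 did not pass the test (edgeR adjusted p = 0.252). Reads from the stretches it shares with Abcb1a, and from the antisense gene Gm5106 that overlaps it, cannot be assigned with certainty, since the strand setting and the rule for multiply mapped reads were not stated. The summed counts of both genes, which do not depend on how reads were divided between them, gave a log2 fold change of 0.96 (edgeR adjusted p = 0.141), which without IKO 4 was 1.16 (edgeR adjusted p = 0.0392). Without IKO 4, WT 3 and WT 4 the summed genes had 1.01 and did not pass (edgeR adjusted p = 0.110). The log2 ratio of Abcb1a to Abcb1b was 9.49 ± 1.40 in WT and 10.58 ± 1.37 in IKO mice (SD, n = 7 each), a difference of 1.10 that did not exceed the spread between mice (exact permutation p = 0.161, adjusted over the 2 ratios tested 0.323). Without IKO 4 the difference was 1.59 and did not pass either (exact permutation p = 0.0297, adjusted over the 2 ratios 0.0594).

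Abcc2 (chr19:43782192-43840740, plus strand), the gene of MRP2, which exports glucuronide and glutathione conjugates across the apical membrane, had levels that overlapped between the genotypes. They were 61.8, 157.1 and 368.4 CPM at the lowest, median and highest in WT and 70.2, 379.3 and 507.3 CPM in IKO mice. Of the IKO mice 5 lay above the highest WT mouse, and IKO 2 (139.98 CPM) and IKO 4 (70.2 CPM) lay below the WT median. The difference, a log2 fold change of 0.82 with an SE of 0.47 and a 95% interval of -0.18 to 1.81, did not pass the test (edgeR adjusted p = 0.247). Among WT mice the 3 with the most Abcc2, WT 5, WT 6 and WT 2 at 258.3 to 368.4 CPM, were also those with the highest summed proximal small intestine markers, at 5478 to 6685 CPM against 1178 to 3118 CPM in the other WT mice. The same 3 WT mice had the most absorptive enterocyte marker RNA too, at 68339 to 107110 CPM against 24031 to 66849 CPM. Within genotypes over the 14 mice, Abcc2 had r = 0.77 with the proximal, 0.74 with the absorptive enterocyte and -0.74 with the macrophage sums. IKO 2 had 9477 CPM of the proximal markers and little Abcc2. The proximal sum includes Fabp1, which passed the test as higher in IKO mice. The parts of intestinal position and of enterocyte content in the result were not tested.

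Abcc3 (chr11:94343295-94392997, minus strand), the gene of the basolateral exporter MRP3, had 9.18, 30.3 and 44.7 CPM at the lowest, median and highest in WT and 5.36, 46.9 and 70.3 CPM in IKO mice. The genotypes overlapped, with 4 IKO mice above the highest WT mouse and IKO 4 below the lowest. The log2 fold change of 0.61, with an SE of 0.42 and a 95% interval of -0.28 to 1.496, did not pass the test (edgeR adjusted p = 0.334). The log2 ratio of the apical Abcc2 to the basolateral Abcc3 was 2.10 ± 0.94 in WT and 2.51 ± 0.63 in IKO mice (SD, n = 7 each), and the difference of 0.41 was within the spread between mice (exact permutation p = 0.360).

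**Figure D3:**
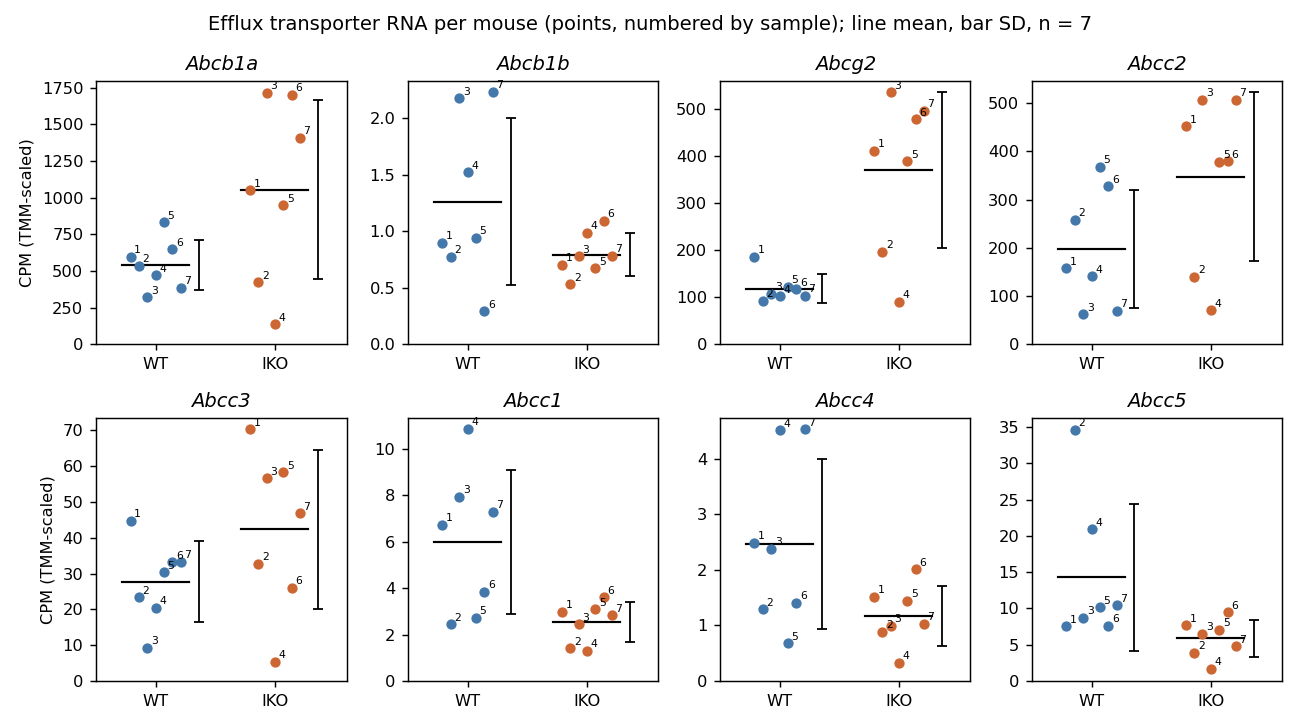
Each panel plots the level of 1 transporter in CPM for the 7 WT and 7 IKO mice, numbered by sample, with a line at the mean and a bar of 1 SD. For Abcg2, 6 of the 7 IKO points lie above every WT point, while IKO 4 is the lowest IKO point in 7 of the 8 panels.

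The other MRP genes, which are expressed in many cell types, had folds (IKO over WT) of 0.41 to 0.48, and only Abcc1 passed the test. Abcc1 (chr16:14361558-14475737, plus strand), the gene of MRP1, an exporter of glutathione conjugates and leukotriene C4, had 2.45, 6.74 and 10.9 CPM at the lowest, median and highest in WT mice. In IKO mice it had 1.31, 2.83 and 3.62 CPM. All 7 IKO mice lay below the WT median and 3 below the lowest WT mouse. In edgeR the log2 fold change was -1.24 with an SE of 0.36 (2.35-fold lower, edgeR adjusted p = 0.0446), and the exact permutation test gave p = 0.0175. This call was near the threshold. It remained without WT 2, WT 5, WT 6 or IKO 6 and was lost without any one of WT 1, WT 3, WT 4, WT 7, IKO 1, IKO 2, IKO 3, IKO 4, IKO 5 or IKO 7, with a log2 fold change of -1.37 to -1.02 and adjusted p of 0.0254 to 0.0825 over the 14 fits.

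The Abcc1 level moved with stromal markers among the WT mice. The 4 WT mice with the most Abcc1, WT 4, WT 3, WT 7 and WT 1 at 6.74 to 10.9 CPM, were the same 4 with the most fibroblast marker RNA, at 28.7 to 354.0 CPM. WT 2, WT 5 and WT 6 had 2.45 to 3.83 CPM of Abcc1 and 6.28 to 13.9 CPM of fibroblast markers. The IKO mice had 1.31 to 3.62 CPM of Abcc1 and 8.32 to 44.7 CPM of the markers, and the pattern was not seen among them. IKO 6 had the most Abcc1 of the IKO mice and the least fibroblast marker RNA. IKO 1 had the most fibroblast marker RNA (44.7 CPM) and 2.98 CPM of Abcc1, whereas WT 3 had 44.2 and 7.95 CPM. Within genotypes over the 14 mice, Abcc1 had r = 0.66 with the fibroblast sum. Of the 6 fibroblast markers 5 were tested and 0 passed in edgeR's test, but all 5 had values below 0, with a median log2 fold change of -2.003. All 6 smooth muscle markers were below 0 as well, with a median of -3.10 and 0 passing. Both medians include WT 4, which stood far from the other WT mice. Its summed smooth muscle markers were 10855 CPM, against 5.08 to 62.4 CPM in the other WT and 4.53 to 795.8 CPM in IKO mice. Its fibroblast markers were 354.0 CPM, against 6.28 to 62.9 CPM in the other WT mice. The medians were not computed without WT 4. None of either list was without counts. Without IKO 4, WT 3 and WT 4 the Abcc1 log2 fold change was -0.76 (edgeR adjusted p = 0.209), and the part of stromal RNA in the result was not tested.

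Abcc4 (chr14:118482692-118706219, minus strand), the gene of MRP4, an exporter of cyclic nucleotides and prostaglandins, had 0.68, 2.38 and 4.53 CPM at the lowest, median and highest in WT and 0.33, 1.02 and 2.01 CPM in IKO mice. All 7 IKO mice lay below the WT median, and the groups overlapped. Its log2 fold change was -1.06 with an SE of 0.44 and did not pass (edgeR adjusted p = 0.123, exact permutation p = 0.0682). As with Abcc1, WT 4, WT 7, WT 1 and WT 3 were the 4 highest WT mice. Libraries held as few as 3 and at most 128 of its reads.

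Abcc5 (chr16:20331303-20426394, minus strand), the gene of MRP5, another exporter of cyclic nucleotides, had 7.56, 10.2 and 34.7 CPM at the lowest, median and highest in WT and 1.64, 6.54 and 9.47 CPM in IKO mice. Of the IKO mice 5 lay below the lowest WT mouse. The log2 fold change of -1.28, with an SE of 0.41 and a 95% interval of -2.14 to -0.41, missed the threshold in edgeR (adjusted p = 0.0589) and passed it in DESeq2 (log2 fold change -1.25, adjusted p = 0.0227). DESeq2 called 16.5% of all genes, against 8.67% in edgeR. The exact permutation test gave p = 0.0082. Leaving out WT 2, the highest mouse at 34.7 CPM, gave a log2 fold change of -0.89. Abcc5 was highest in the pair of WT mice with the most colon marker RNA, WT 4 (2507 CPM) and WT 2 (2391 CPM), and lowest in the IKO mouse with the least, IKO 4 (530.0 CPM). Within genotypes over the 14 mice, r with the colon sum was 0.90. Between genotypes the pattern did not carry over. IKO 6 had the most colon marker RNA of all 14 mice (2982 CPM) and 9.47 CPM of Abcc5. The median colon sum was 1594 CPM in WT and 1828 CPM in IKO mice. Of the 6 colon markers Hoxb13 had no count and 0 of the 3 tested passed in edgeR's test, and the part of these cells in the result was not tested.

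Much of the spread within the IKO group came from the same mice. IKO 4 was the lowest IKO mouse for 7 of the 8 members and IKO 2 the lowest or second lowest for 7 of the 8. Relative to its group median, the median member stood at -2.06 on the log2 scale in IKO 4 and at -0.84 in IKO 2, while the median over 5278 tested genes of 5 kb or more was -0.09 and -0.16. The 2739 tested genes under 2 kb had a median of 0.19 in IKO 4 and 0.47 in IKO 2, and the latter was the highest of the 14 libraries. By the gene lengths of the count table all 8 members are longer than 5 kb. The transcripts used above for the coding sequences have 4997 bases in Abcb1a and 4306 in Abcb1b. IKO 2 thus stood apart in the balance of short and long genes as well as in the transporters. IKO 4 was the library with 50.3% mitochondrial counts, and IKO 2 had 4.14%. After each library was corrected for a dependence of level on length, the log2 fold change of Abcg2 was 1.67 (limma adjusted p = 0.0072) and that of Abcc1 -0.74 (0.170), and the part of RNA quality was not otherwise tested.

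Within genotypes, Abcb1a varied together with Abcg2 and with Abcc2 across the 14 mice. After the genotype means were removed, Pearson's r of the log2 levels was 0.93 between Abcb1a and Abcg2 (Spearman's rho 0.84) and 0.88 between Abcb1a and Abcc2 (rho 0.82). The permutation p of r, adjusted over all 28 pairs of members, was 0.0128 for the first pair and 2.8e-04 for the second, and that of rho 0.0298 and 8.4e-04. The 6 pairs among Abcb1a, Abcg2, Abcc2 and Abcc3 had r from 0.71 to 0.93 and rho from 0.41 to 0.84, and the other 4 of them did not pass the adjusted threshold. Without the 2 mice farthest from the median in Abcb1a, which were IKO 2 and IKO 4, r was 0.51 for Abcb1a and Abcg2, 0.79 for Abcb1a and Abcc2 and 0.27 for Abcb1a and Abcc3. Without the 2 mice farthest from the median in Abcc2, r was 0.21 for Abcc2 and Abcc3 and 0.51 for Abcc2 and Abcg2. Without the 2 farthest in Abcc3, r of Abcc3 and Abcg2 was 0.48. All 6 values of r were thus lower, that of Abcb1a and Abcc2 by little. Leaving out the most distant mice narrows the range of a gene, which by itself tends to lower r. The values therefore cannot decide how far the shared variation rested on these mice.

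The second group was Abcc1 and Abcc4, with r = 0.89 and rho = 0.89 (permutation p adjusted over 28 pairs 2.8e-04 for r and 0.0049 for rho), and r was 0.86 without the 2 mice farthest from the median in Abcc1. The P-glycoprotein genes did not vary together (r = -0.22, rho = -0.11, adjusted permutation p 0.306 and 0.819). Only these 3 pairs, Abcb1a with Abcg2, Abcb1a with Abcc2 and Abcc1 with Abcc4, passed the adjusted threshold of 0.05 for r among the 28.

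**Figure D4:**
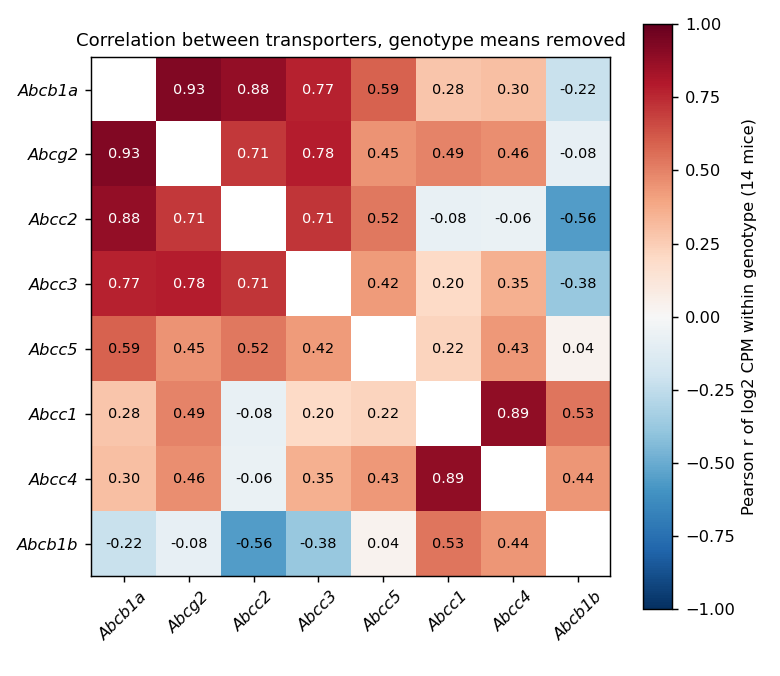
Squares give Pearson's r of the log2 CPM between transporters over the 14 mice after the genotype means were removed, on a scale from -1 to 1. The 6 pairs among Abcb1a, Abcg2, Abcc2 and Abcc3 have values of 0.71 to 0.93, of which 2 passed the test, and Abcc1 and Abcc4 pair at 0.89.

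For each member the genes most like it in this within-genotype pattern over 14 mice are given as descriptions. Those nearest to Abcb1a were Pdia3, Met and Dsc2 (r = 0.98 each), those nearest to Abcg2 were Cpd (0.97), Atp2b1 (0.96) and Mfsd14a (0.96), and those nearest to Abcc2 were Map7, Slc9a3 and Slc5a4a (0.98 each). Slc9a3 encodes an apical sodium-proton exchanger of the enterocyte. Those nearest to Abcc3 were Dolk (0.97), Slc35a2 (0.96) and Ddost (0.95), which act in protein glycosylation. Slc4a8, a bicarbonate transporter gene, was among the nearest of both Abcc1 (0.89) and Abcc4 (0.92). The others were Atp11a (0.90) and Setbp1 (0.90) for Abcc1, Ubr2 (0.91) and Zfp251 (0.89) for Abcc4, Gm26532 (0.94), Sema6b (0.92) and Tmem43 (0.92) for Abcc5, and Dennd4b (0.92), Zeb2 (0.87) and Ppp1r18 (0.87) for Abcb1b.

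The wider pathway of the transporters was then read from lists of their relatives, regulators and partners. Among 31 other ABC transporters tested, 1 rose and 4 fell (edgeR adjusted p under 0.05), with a median log2 fold change of -0.33. The one that rose was Abcd3, which carries fatty acids into peroxisomes (log2 fold change 1.14, adjusted p = 0.0251). The others were Abca2 (-1.20, 0.0149), Abca5 (-1.81, 0.0312), Abcc6 (-1.31, 0.0397) and, named after its value was seen, Abcg3 (-1.57, 0.0486), a rodent relative of Abcg2.

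Among 22 solute carriers that carry drugs or bile acids, uptake carriers and exporters alike, 2 rose and 2 fell in edgeR's test, with a median log2 fold change of -0.05. Slc22a5, the carnitine transporter, rose (1.26, adjusted p = 0.0424), as did Slc22a23 (1.02, 0.0495), whereas Slco2b1, an uptake carrier for organic anions (-1.003, 0.0098), and Slc22a3, a carrier for organic cations (-1.22, 0.0334), fell.

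Regulators of the xenobiotic response were compared in the same edgeR fit. Vdr, the vitamin D receptor, rose (log2 fold change 0.94, adjusted p = 0.0055), as did Ppara, a fatty acid receptor (1.55, 0.0285). Ncor1 fell (-1.41), as did Ahr, the aryl hydrocarbon receptor (-1.02, 0.0349). Nr1i2, the gene of PXR, had 132.8 ± 59.6 CPM in WT and 219.8 ± 44.5 CPM in IKO mice (SD, n = 7 each), a log2 fold change of 0.73 that missed the threshold in edgeR (adjusted p = 0.0675) and passed it in DESeq2 (adjusted p = 0.0236), and all 7 IKO mice exceeded the median WT mouse. Nr1i3, the gene of CAR, had a log2 fold change of -0.63 (0.422), and Nfe2l2, the gene of the oxidative stress sensor NRF2, one of -0.03 (0.938).

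Genes known as targets of PXR and CAR, other than ABC transporters, rose in 13 of the 18 tested and fell in 0 (edgeR adjusted p under 0.05, median log2 fold change 1.68). The 4 with the smallest p were Ces2a, a carboxylesterase (2.87, adjusted p = 7.6e-05), Aldh1a7 (1.59, 2.2e-04), Cyp2c55 (4.45, 2.7e-04) and Aldh1a1 (1.76, 4.4e-04). Beside these, the 8 transporters went both ways. Abcg2 had 1.65, Abcb1a 0.96, Abcc2 0.82 and Abcc3 0.61, whereas Abcb1b had -0.68, Abcc4 -1.06, Abcc1 -1.24 and Abcc5 -1.28. Only Abcg2 and Abcc1 passed. Of 16 NRF2 targets 7 rose and 0 fell (median 0.70), among them Me1 (2.16, 0.0026), Gsta4 (2.22, 0.0041), G6pdx (0.85, 0.0080) and Pgd (0.85, 0.0088). Of 39 conjugation enzymes, which make substrates for the MRP exporters, 13 rose and 0 fell (median 0.63), among them Gsta4, Gsto1 (0.95, 0.0062), Gstp1 (1.07, 0.0098) and Gstm4 (1.15, 0.0116). The only tested AhR targets were Nqo1 (0.52, 0.0895) and Tiparp (0.39, 0.372), and neither passed. The lists overlap, so their counts are not independent, and the genes they share are named here for that alone. Gsta4, Gstp1, Gclc and Gclm stand among both the NRF2 targets and the conjugation enzymes. Gsta1, Gstm1, Gstm3 and Sult1d1 stand among both the PXR and CAR targets and the conjugation enzymes. Nqo1 belongs to both the AhR and the NRF2 targets.

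Over 17 marker lists of intestinal cell types and regions, 2 of the 95 genes tested rose and 0 fell in edgeR's test, both named after their values were seen. These were Fabp1, a fatty acid binding protein of proximal enterocytes (log2 fold change 2.17, adjusted p = 0.0277), and Cd14, a macrophage marker (0.77, 0.0328). The paper describes Fabp1 as a target of PPARα and reports it raised in the ileum of IKO mice in RNA and protein. The gene is therefore not a marker of position alone. The other 5 of the 6 proximal markers tested did not pass, and the median of the list was 0.24. Cd14 was the only 1 of the 6 macrophage markers with a value above 0, and the median of the 6 was -0.38. Summed macrophage markers were 40.0 to 135.1 CPM in WT and 25.3 to 79.3 CPM in IKO mice, and summed proximal markers 1178 to 6685 and 2912 to 9477 CPM. Their part in the transporter levels was not tested.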

How the data were processed

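RNA-seq of 14 ileal mucosa samples was used. The authors prepared libraries with a NEBNext Ultra kit and sequenced 150-bp paired-end reads. The submitters' processing notes name HISAT2 2.0.5, featureCounts 1.5.0-p3 and DESeq2 1.16.1, and the build mm10. The deposited counts are whole reads per gene without normalization. The deposited FPKM equal the counts per length divided by the authors' size factor times 1 constant. Strand setting and treatment of multiply mapped reads were not stated. The KO columns are the IKO mice.

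filterByExpr kept 13846 genes. Counts were scaled by TMM and the genotypes compared in edgeR 4.0.16 (glmQLFit, glmQLFTest; R 4.3.3) without covariates. P-values were adjusted by Benjamini-Hochberg over every gene kept. SE is the log2 fold change divided by the square root of F. CPM use TMM-scaled libraries, and log2 levels a prior count of 2. Permutation tests were two-sided and covered all 3432 divisions of the mice, and correlations used 100000 shuffles within genotype. limma 3.58.1, DESeq2 1.42.0, other filters, the sample number as a block and left-out mice served as alternatives. The method was tested on simulated data. Sequences came from GENCODE M21 and RefSeq and were handled with Biopython 1.88.

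All 8 members were named, and of each list up to 4 genes with the smallest p that passed, 6 fixed regulators (Ncor1, Nr1i2, Nr1i3, Ahr, Nfe2l2, Ppara), the 2 with the smallest p where none passed, and the 3 genes most correlated with each member. Members and lists were chosen with earlier results of these data known. Protein sequences were not used here. One list of regulators is given by its named genes alone, and its other results are not reported here.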

Additional observations from a re-analysis of the deposited data

Results flagged for a closer look

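In 22 groups of 7 mice, formed from 11 measures in each genotype, the gap between the most distant mouse and its nearest neighbour was compared with the range of the group. Chance alone flags about 1 in 20 such groups, or 1.1 of the 22, and 5 were found. The Abcg2 level of WT 1, at 186.0 CPM, lay above the other WT mice (gap 0.598 of the range on the log2 scale). The Abcc3 level of IKO 4, at 5.36 CPM, lay below the other IKO mice (0.613), and its log2 ratio of Abcb1a to Abcb1b, 7.64, was the lowest of the IKO group (0.634). The mitochondrial share was 50.3% in IKO 4 (0.944) and 23.9% in WT 3 (0.676). Of the 5, 3 belong to IKO 4.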

How the results depend on the processing

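No member changed direction in any of the alternatives. Genes called numbered 1200, against 2571 in DESeq2, 508 without a filter on low counts, 369 by limma on log2(FPKM + 1) without a filter, 1889 by limma-voom with sample quality weights, and 433 without IKO 4, WT 3 and WT 4, and from 515 (without IKO 5) to 1371 (without WT 2) with 1 mouse left out; it moved by over 1.5 times without WT 4 (746), WT 7 (600), IKO 1 (526), IKO 2 (728), IKO 5 and IKO 7 (789). The members called numbered 2, against 3 in DESeq2, 1 without a filter, by limma on log2(FPKM + 1) or log2(FPKM + 0.1), by limma-voom, without IKO 4, WT 3 and WT 4 and with the gene length trend removed, 0 by limma on log2(FPKM + 1) without a filter, and 1 to 2 with 1 mouse left out. In DESeq2 16.5% of all 15607 genes with an adjusted p passed, against 8.67% in edgeR. Limma on filtered FPKM tested only 5 members. The Abcc1 log2 fold change lost its call without a filter (-1.20, adjusted p = 0.101), by limma on log2(FPKM + 1) without a filter (-0.24), by limma-voom (-0.71), without IKO 4, WT 3 and WT 4 (-0.76) and with the length trend removed (-0.74), and ranged from -1.37 to -1.02 with 1 mouse left out. Abcg2 lost its call by limma on log2(FPKM + 1) without a filter (1.46). Abcc5 gained one in DESeq2 (-1.25) and with at least 10 counts in every sample (-1.33). With 1 mouse left out Abcb1a (0.79 to 1.16) gained one without IKO 4, as did the summed P-glycoprotein genes (0.79 to 1.16). Neither log2 ratio passed in any alternative. The causes were not tested. The removal of the length trend was chosen after seeing the data.

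The same sample number did not mark the same mouse or litter in the labels, and deviations of same-numbered mice correlated between -0.31 and 0.23, over 0.1 in 1 of 7. With the number as a replicate block, 362 genes and 1 member were called, and Abcc1 had -1.11 (edgeR adjusted p = 0.127). Counting error limits Abcb1b and Abcc4, with 6 to 63 and 3 to 128 reads per library.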
